A study of Rattus norvegicus with 325 samples.

Results

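The 8 genes described here build and hold the neuromuscular junction, the synapse between a motor nerve ending and a muscle fibre: Agrn (agrin), Lrp4, Musk, Dok7, Rapsn (rapsyn), Colq, Ache and Ncam1. They were chosen by symbol, for their known roles, from 17315 distinct symbols in the count files, and each of the 8 was found on 1 line. Earlier results of these data were known when the 8 were chosen. Musk and Ncam1 are also genes that the study itself followed as markers of lost nerve contact, so their direction with age is not independent evidence.

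The animals were untreated male rats of the outbred Sprague Dawley stock, and RNA of whole muscle was sequenced. There were 85 libraries of tibialis anterior, 73 of gastrocnemius, 84 of soleus and 83 of diaphragm, with 9 to 13 in each of the 28 groups of muscle and age. Adults of 6, 9 and 12 months and older animals of 18, 21, 24 or 27 months were used, all aged at the supplier and moved to the study site some weeks before tissue was taken. Because tissues of 1 age were taken on 1 day, age cannot be told apart from the day, and as the labels do not tie libraries to animals, p-values measure the spread between libraries.

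The tibialis anterior and gastrocnemius are mainly fast muscles of the hind limb, the soleus is a slow one, and the diaphragm drives breathing. Total counts per library ran from 17555294 to 85316329, with a median of 31879679. Myh7, the slow myosin heavy chain, had a median of 47514 CPM (counts relative to the total of the library) in the soleus at 6 months and 2062 in the tibialis anterior, while Myh4, the fastest one, had 8.39 and 87432. The gastrocnemius libraries carried a running number series of their own in the labels, as did the libraries of 12 months of the other muscles, so contrasts with these cannot be told apart from that series. In 3 libraries, 2 or more of the 8 genes lay far from their group, and leaving these out changed neither direction nor call in the 36 results of the diaphragm and tibialis anterior recomputed. In replicate 11 of the diaphragm at 18 months Ache was at 63.8 CPM against 28.4 to 45.7 in the others, and Hoxc10, a hind limb positional gene, was at 2.16 CPM against at most 0.148. In replicate 7 of the tibialis anterior at 21 months Musk was at 42.0 CPM against 5.29 to 23.1 in the others, with the embryonic myosin Myh3 at 796 against at most 167. In replicate 6 of the tibialis anterior at 24 months Musk was at 65.4 CPM against 15.3 to 44.8, and Ache at 17.0 against 34.9 to 65.4.

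Agrin, released by the motor nerve ending, binds the receptor Lrp4 on the muscle fibre, and Lrp4 then activates the kinase MuSK. The adaptor Dok7 is needed for that activation, and rapsyn is the scaffold that packs acetylcholine receptors under the nerve ending. ColQ is the collagen tail that anchors acetylcholinesterase, the enzyme coded by Ache that ends each signal, in the synaptic cleft, and Ncam1 codes for an adhesion molecule that spreads along a fibre once its nerve contact is lost. In an innervated adult fibre most of these genes are read mainly by the few nuclei beneath the synapse, and some become active along the whole fibre after denervation. In bulk tissue, fewer cells of a type and less RNA per cell cannot be told apart, and counts per gene do not separate splice forms, such as those of agrin, Ache and Ncam1. All levels given here are CPM after TMM scaling of all libraries together. They are compared between samples and not between genes, because transcript lengths were not used.

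At 27 against 6 months the limb muscles had more RNA of MuSK and of its activator Lrp4, whereas the RNA of agrin, Dok7 and rapsyn stayed within 1.5-fold. A gene was called when limma-voom gave an adjusted p under 0.05 (Benjamini-Hochberg over all genes tested in a comparison) and a change over 1.5-fold. The tibialis anterior had 4 of the 8 genes called, where 27.6% of all genes tested were called, the gastrocnemius 4 (22.8%), the soleus 5 (15%) and the diaphragm 2 (7.52%). The median log2 change of the 8 genes was 0.17, 0.12, 0.58 and 0.13 in that order, beside 0.02, 0.04, 0.02 and 0.00 over all genes tested. Musk and Ncam1 were called higher in all 4 muscles and Lrp4 in the 3 limb muscles, while Ache was called higher in the soleus but lower in the other 2 limb muscles.

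**Figure D1:**
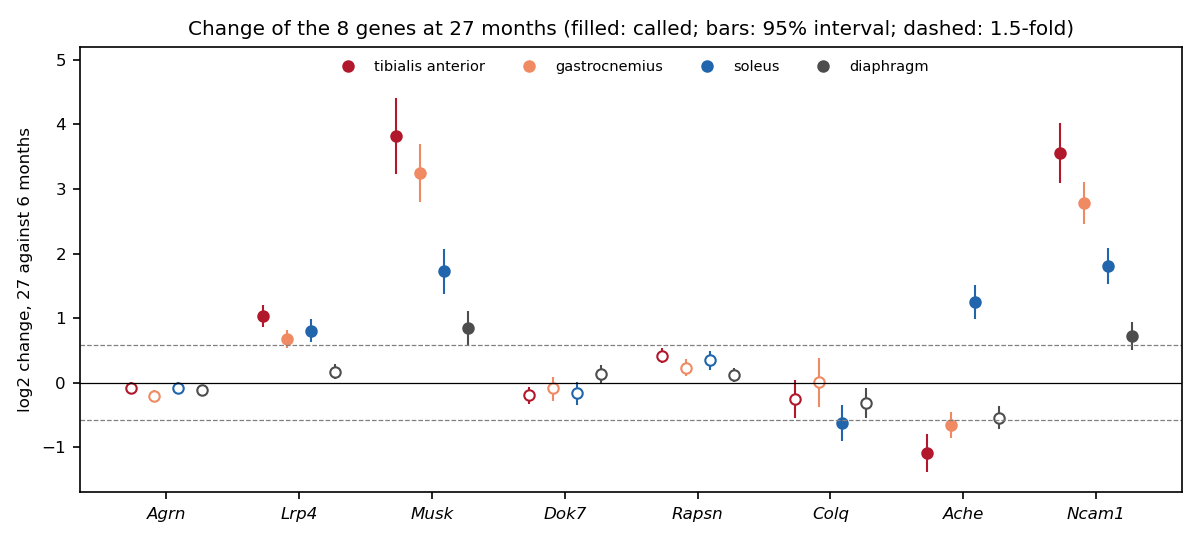
Log2 change of each of the 8 genes at 27 against 6 months in 4 muscles, with 95% intervals from limma-voom; filled points were called and dashed lines mark 1.5-fold. Musk and Ncam1 lie highest in the tibialis anterior (3.82 and 3.56), Ache lies above 0 in the soleus alone (1.25), and Agrn, Dok7 and Rapsn have open points throughout.

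Agrn RNA, the ligand's, was not called in any muscle. Its lowest, median and highest CPM in the tibialis anterior were 43.7, 46.4 and 50.6 at 6 months, against 38.0, 43.0 and 54.9 at 27 months. In the gastrocnemius they were 40.5, 42.3 and 48.2 at 6 months, against 34.0, 36.6 and 41.6 at 27 months, and 10 of 11 libraries of 27 months lay below all libraries of 6 months. This was the only muscle with a trend for Agrn, a linear fall, and the log2 change was -0.20 (SE 0.04, adjusted p = 0.0001). On total-count scaling, which moved the median log2 change of all genes to 0.32 in the gastrocnemius, 0.34 in the tibialis anterior and 0.16 in the soleus, the change of Agrn became 0.08, 0.24 and 0.07 in these muscles, so its direction depended on the scaling. The diaphragm had the highest Agrn level at 6 months, 66.6, 74.3 and 78.8 CPM, and the gastrocnemius and tibialis anterior were called lower than it, by log2 differences of -0.78 (SE 0.05, adjusted p = 5.6e-45) and -0.66 (SE 0.04, adjusted p = 1.6e-37).

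Lrp4, the agrin receptor, rose late in the limb muscles. In the tibialis anterior it ran from 46.8 to 55.2 CPM at 6 months (median 48.6) and from 63.0 to 126 at 27 months (median 105), with no overlap, and the log2 change was 1.03 (SE 0.09, adjusted p = 3.3e-18). In the soleus the libraries of 6 months ran from 39.3 to 58.1 CPM (median 47.9) and those of 27 months from 47.9 to 118 (median 80.9), with 11 of 12 above all libraries of 6 months and a log2 change of 0.80 (SE 0.09, adjusted p = 5.4e-13). In the gastrocnemius the medians were 55.1 and 91.4 CPM, 10 of 11 libraries of 27 months lay above those of 6 months, and the log2 change was 0.67 (SE 0.07, adjusted p = 7.6e-13). Lrp4 in the diaphragm stayed under 1.5-fold, with medians of 67.7 and 78.6 CPM and a log2 change of 0.17 (SE 0.06, adjusted p = 0.0112).

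By its medians, Lrp4 rose at different ages. In the soleus the median was still 46.8 CPM at 24 months and its log2 step from 24 to 27 months was 0.75 (SE 0.09, adjusted p = 1.1e-09), where 4.52% of all genes were called. In the tibialis anterior the median was already 76.7 CPM at 24 months and in the gastrocnemius 82.4, before the changes at 27 months given above. Lrp4 was not called at 24 against 6 months in either of these muscles, nor at any step between neighbouring ages there. In the tibialis anterior its adjusted p at 24 against 6 months was under 0.05, with a fitted change under 1.5-fold.

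Musk RNA, that of the kinase at the centre of the pathway, rose more than any other of the 8 genes in the tibialis anterior, the gastrocnemius and the diaphragm. In the tibialis anterior its lowest, median and highest CPM were 2.28, 3.27 and 4.01 at 6 months, 4.14, 6.16 and 11.7 at 18 months, then 16.8, 46.8 and 74.2 at 27 months. Every library from 18 months on lay above all libraries of 6 months in that muscle. The same held in the gastrocnemius, with 3.01, 3.90 and 4.65 CPM at 6 months, 5.37, 8.62 and 16.9 at 18 months, then 19.4, 39.0 and 52.9 at 27 months.

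In the soleus and diaphragm Musk rose later and less. The soleus had 3.15, 3.69 and 5.05 CPM at 6 months, 3.19, 5.01 and 13.0 at 24 months, then 6.49, 12.4 and 20.0 at 27 months, where 12 of 12 libraries lay above all those of 6 months. The diaphragm went from 7.78, 9.84 and 12.1 CPM to 9.00, 16.9 and 29.0, with 10 of 12 above. Against 6 months the log2 change of Musk at 27 months was 3.82 for the tibialis anterior (SE 0.30, adjusted p = 1.4e-19), 3.25 for the gastrocnemius (SE 0.22, adjusted p = 2.5e-20), 1.73 for the soleus (SE 0.17, adjusted p = 4.5e-14) and 0.84 for the diaphragm (SE 0.13, adjusted p = 3.2e-07).

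**Figure D2:**
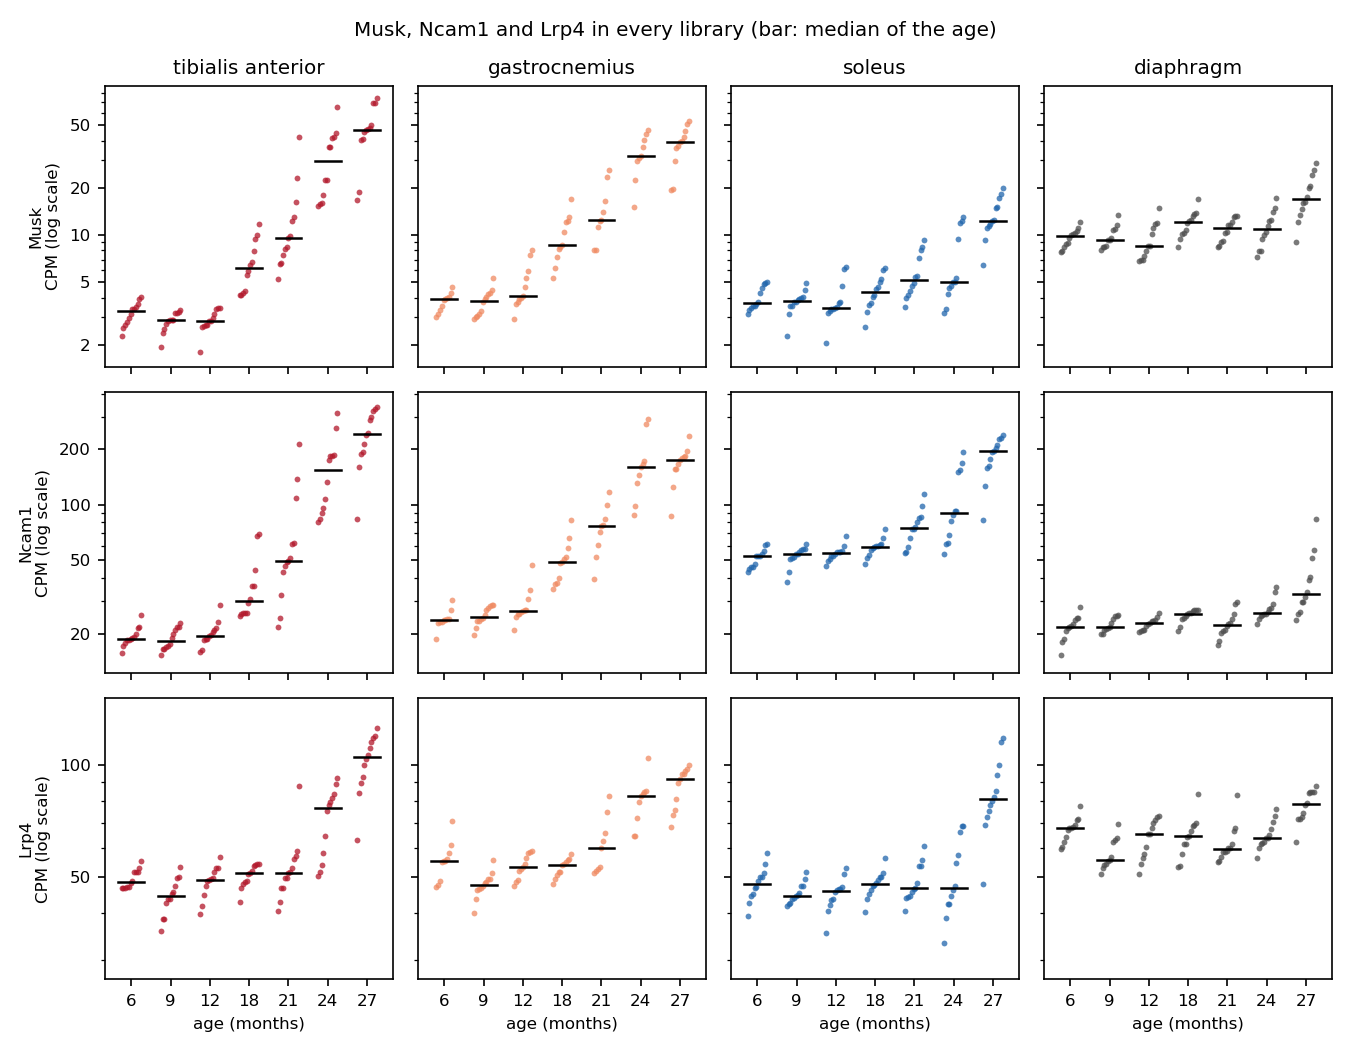
CPM (log axis) of Musk, Ncam1 and Lrp4 in every library by age in months, with a panel per muscle, points drawn in order of value within an age and a bar at the median. Musk at 27 months reached medians of 46.8, 39.0, 12.4 and 16.9 CPM in the tibialis anterior, gastrocnemius, soleus and diaphragm, and the Lrp4 medians of the soleus stayed between 44.6 and 47.9 CPM up to 24 months.

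At 9 and at 12 months none of the 8 genes was called against 6 months in any muscle. Of all genes these comparisons called, at 9 and at 12 months, 0.00851% and 0.196% for the tibialis anterior, 0.143% and 0.885% for the gastrocnemius, 0.123% and 0.353% for the soleus and 0.108% and 0.532% for the diaphragm. In these 8 comparisons 12 of the 64 tests of the 8 genes had an unadjusted p under 0.05, and edgeR and DESeq2 called 0 of them. In the soleus at 12 months 1 of the 8 had an adjusted p under 0.05, with a change under 1.5-fold. At 18 and 21 months Musk and Ncam1 were called in the gastrocnemius (4.32% and 5.81% of all genes called) and the tibialis anterior (5.45% and 6.47%). None of the 8 was called then by limma-voom in the soleus (2.84% and 2.61% of all genes called) or the diaphragm (2.25% and 1.68%). Unadjusted p-values under 0.05 were found for 0 and 4 of the 8 in the soleus and for 2 and 1 in the diaphragm, and edgeR and DESeq2 called 1 each in the soleus at 21 months and 0 elsewhere here. By limma-voom 2 of the 8 in the soleus at 21 months had an adjusted p under 0.05, with changes under 1.5-fold. All comparisons with 6 months in a muscle share the same libraries of 6 months.

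The steps between neighbouring ages put numbers on this order. Musk rose at every step from 12 months on in the tibialis anterior, with log2 steps of 1.18 (SE 0.35, adjusted p = 0.00717) to 18 months, 0.79 (SE 0.26, adjusted p = 0.0161) to 21, 1.39 (SE 0.21, adjusted p = 1.1e-06) to 24 and 0.61 (SE 0.19, adjusted p = 0.00535) to 27 months. These steps called 3.49%, 1.97%, 3.52% and 6.08% of all genes. Without the 2 libraries of this muscle that stand apart, the last 3 steps were 0.65, 1.42 and 0.73, and all were called. In the gastrocnemius Musk was called at 2 steps, from 12 to 18 months (1.01, SE 0.22, adjusted p = 0.00825, 0.742% of all genes) and from 21 to 24 months (1.21, SE 0.19, adjusted p = 3.1e-06, 6.72%). In the soleus and the diaphragm it was called at the last step alone, by 1.12 (SE 0.16, adjusted p = 4.8e-08) and 0.60 (SE 0.13, adjusted p = 0.00016, 4.39% of all genes). With sample quality weights the last of these was 0.53 and not called. Against 6 months Musk was already called higher in the soleus at 24 months, though not with those weights.

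The level of Musk before ageing also differed between muscles. At 6 months it was highest in the diaphragm, where the lowest library (7.78 CPM) lay above the highest of the other muscles (5.05 CPM). The soleus, gastrocnemius and tibialis anterior were lower than the diaphragm by log2 differences of -1.25 (SE 0.23, adjusted p = 3.8e-07), -1.33 (SE 0.25, adjusted p = 7.9e-07) and -1.61 (SE 0.25, adjusted p = 2.3e-09). The other three did not differ from each other beyond their spread, with adjusted p between 0.252 and 0.825. At 27 months the order of the medians was turned, with the tibialis anterior and gastrocnemius highest and the soleus lowest.

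RefSeq (build GRCr8, a later build than the one of the counts) lists a promoter window of 300 bases for 4 of the 8 genes, Musk, Dok7, Agrn and Ache. Musk and Ache are shown because their RNAs moved in opposite directions in the fast muscles. The first 2 stretches lie upstream of the gene spans of that table, and the last, inside the span, holds the only match in the Musk window to the E-box CAGCTG, a motif that myogenic factors such as myogenin bind (capitals):
Musk, chr5:77853486-77853559, plus strand, 74 bases: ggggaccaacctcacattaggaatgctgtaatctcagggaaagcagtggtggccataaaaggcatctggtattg
Ache, chr12:25050609-25050660, minus strand, 52 bases: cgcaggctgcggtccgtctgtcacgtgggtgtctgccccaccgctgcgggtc
Musk, chr5:77853645-77853674, plus strand, 30 bases: gtgagtactcccCAGCTGgccttgtccatc

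The Musk E-box lies 79 bases before the listed start and inside the gene span of the table, which begins before that start. On both strands, 15.1% of 33469 windows of this length held CAGCTG. The E-box CAGGTG or its complement CACCTG stood in 18.8% of windows and in the Dok7 window among these 4 genes, and the Ets core CCGGAA or its complement TTCCGG in 15%. No match to these letters stood in the Ache and Agrn windows. The Ache window was rich in G and C, 75% against a median of 51.7% over all windows, and the Musk window had 47.7%. Each match is a description of letters only, and binding was not measured.

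Dok7 RNA, that of the MuSK adaptor, was not called at any age in any muscle. Its medians at 6 and 27 months were 26.2 and 24.6 CPM in the tibialis anterior, 23.1 and 21.3 in the gastrocnemius, 14.9 and 12.6 in the soleus and 16.7 and 18.0 in the diaphragm. The ranges of the ages overlapped in every muscle. The log2 changes lay between -0.19 (tibialis anterior, SE 0.07, adjusted p = 0.0089) and 0.13 (diaphragm, SE 0.08, adjusted p = 0.156). On total-count scaling the tibialis anterior and gastrocnemius values became 0.14 and 0.19.

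Rapsn RNA, that of the receptor scaffold, rose by less than 1.5-fold. In the tibialis anterior its lowest, median and highest CPM were 18.9, 20.4 and 22.3 at 6 months, against 21.9, 27.4 and 34.4 at 27 months, with 11 of 12 libraries of 27 months above all of 6 months. The log2 change was 0.42 (SE 0.05, adjusted p = 1.9e-10) there, 0.35 for the soleus (SE 0.07, adjusted p = 4.8e-05) and 0.23 for the gastrocnemius (SE 0.06, adjusted p = 0.0011). In the diaphragm it was 0.12 (SE 0.05, adjusted p = 0.057). On total-count scaling the value in the tibialis anterior was 0.74 and was called.

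**Figure D3:**
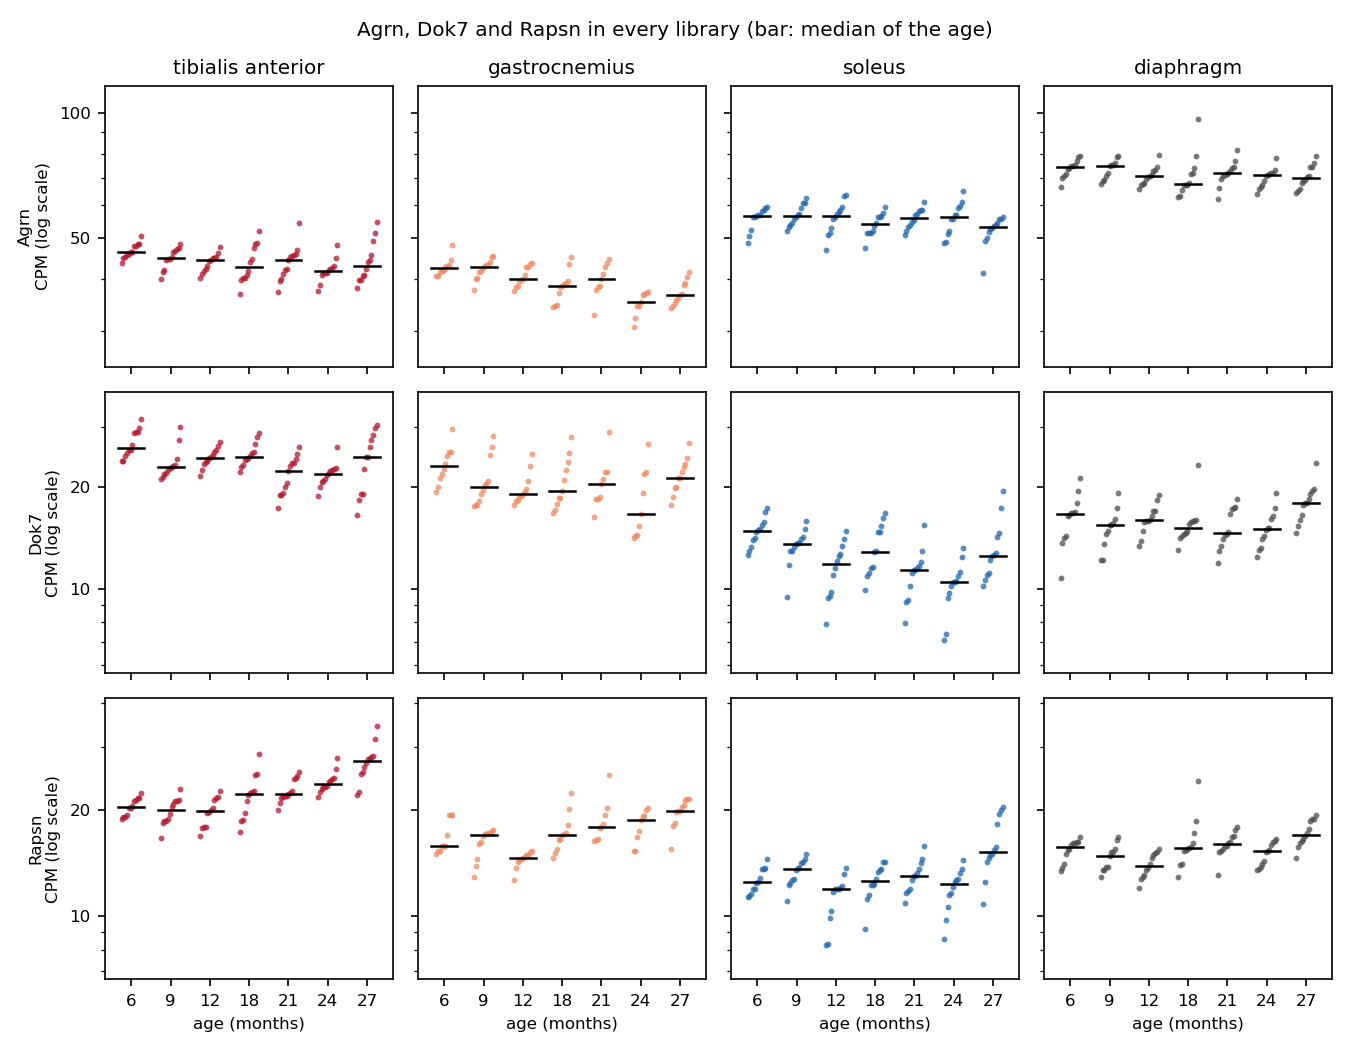
CPM (log axis) of Agrn, Dok7 and Rapsn in every library by age in months, with a panel per muscle, points drawn in order of value within an age and a bar at the median. Their medians moved by less than 1.5-fold from 6 to 27 months, for Rapsn in the tibialis anterior from 20.4 to 27.4 CPM.

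Ratios of 2 genes within a library do not depend on the scaling between libraries. The mean log2 ratio of Musk to Dok7 in the tibialis anterior was -3.09 ± 0.25 (SD, n = 12) at 6 months and 0.88 ± 0.91 (SD, n = 12) at 27 months, and 12 of 12 libraries lay above all those of 6 months. It rose by 3.35 in the gastrocnemius and 1.87 in the soleus, each with an adjusted p of 2.9e-05 in a two-sided permutation test, and by 0.69 in the diaphragm (adjusted p = 0.00061). The ratio of Musk to Rapsn rose by 3.37, 3.01, 1.37 and 0.69 in the tibialis anterior, gastrocnemius, soleus and diaphragm.

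In the RNA of whole muscle, Lrp4 gained on Agrn and Musk on Lrp4. Agrn RNA in muscle does not measure the agrin that the motor nerve ending releases. The log2 ratio of Agrn to Lrp4 in the tibialis anterior ran from -0.25 to 0.04 at 6 months and from -1.63 to -0.67 at 27 months, and it fell by 1.12 there and by 0.86, 0.88 and 0.28 in the gastrocnemius, soleus and diaphragm, each with an adjusted permutation p of 2.9e-05. The ratio of Lrp4 to Musk fell by 2.75, 2.59, 0.91 and 0.64 in the same order. In these 20 tests of 5 ratios the raw p of 2e-05 is the smallest that 100000 resamples give.

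Ache and Colq, which together make the anchored enzyme of the cleft, differed most between muscles. At 6 months Colq ran from 72.0 to 123 CPM in the soleus (median 102), from 19.3 to 40.0 in the diaphragm (median 26.0), from 4.33 to 9.04 in the gastrocnemius (median 6.92) and from 2.78 to 6.22 in the tibialis anterior (median 4.52). Ache had another order, with medians of 73.5 CPM in the gastrocnemius, 66.9 in the tibialis anterior, 35.4 in the diaphragm and 10.3 in the soleus. The highest soleus library (16.8 CPM) lay below the lowest diaphragm library (26.9 CPM). Colq was 22.4-fold lower and Ache 6.34-fold higher in the tibialis anterior than in the soleus, as log2 differences of -4.49 (SE 0.17, adjusted p = 1e-77) and 2.66 (SE 0.13, adjusted p = 2.4e-55). Among the neighbours in these orders, Ache did not differ beyond its spread between the gastrocnemius and the tibialis anterior (-0.12, SE 0.12, adjusted p = 0.433).

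With age Ache fell in the fast muscles and rose in the soleus. In the tibialis anterior its lowest, median and highest CPM were 62.2, 66.9 and 72.7 at 6 months, 17.0, 49.97 and 65.4 at 24 months, then 13.8, 35.0 and 57.5 at 27 months, where 12 of 12 libraries lay below all those of 6 months. In the gastrocnemius they were 60.6, 73.5 and 85.0 at 6 months, against 31.6, 44.5 and 64.6 at 27 months, with 10 of 11 below. In the soleus they were 8.27, 10.3 and 16.8 at 6 months, against 16.7, 25.5 and 33.2 at 27 months, with 11 of 12 above. The ranges of the soleus and tibialis anterior overlapped at 27 months, which they did not at 6 months.

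For Ache the log2 change at 27 months was -1.09 for the tibialis anterior (SE 0.15, adjusted p = 2.8e-10), -0.65 for the gastrocnemius (SE 0.10, adjusted p = 1e-07) and 1.25 for the soleus (SE 0.14, adjusted p = 1e-12). In the diaphragm it was -0.54 (SE 0.09, adjusted p = 8.1e-07), a change under 1.5-fold, with medians of 35.4 and 23.8 CPM. On total-count scaling the gastrocnemius value was -0.37 and not called. At 24 months Ache was called in the gastrocnemius (-0.66, SE 0.11, adjusted p = 3.3e-07, 18.8% of all genes called) and the soleus (0.89, SE 0.14, adjusted p = 6.9e-07, 6.51%). Musk and Ncam1 were called higher in both muscles at that age. By limma-voom 6 of the 8 genes in the gastrocnemius and 4 in the soleus had an adjusted p under 0.05. Of the 8 genes, 2 were called at that age in the tibialis anterior, Musk and Ncam1, where 14.5% of all genes were called. All 8 had an adjusted p under 0.05 in that muscle, the others with changes under 1.5-fold. In the diaphragm limma-voom, edgeR and DESeq2 called 0, where 2.68% of all genes were called. By limma-voom 3 of the 8 had an unadjusted p under 0.05 there, and these 3 also had an adjusted p under 0.05 with changes under 1.5-fold.

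**Figure D4:**
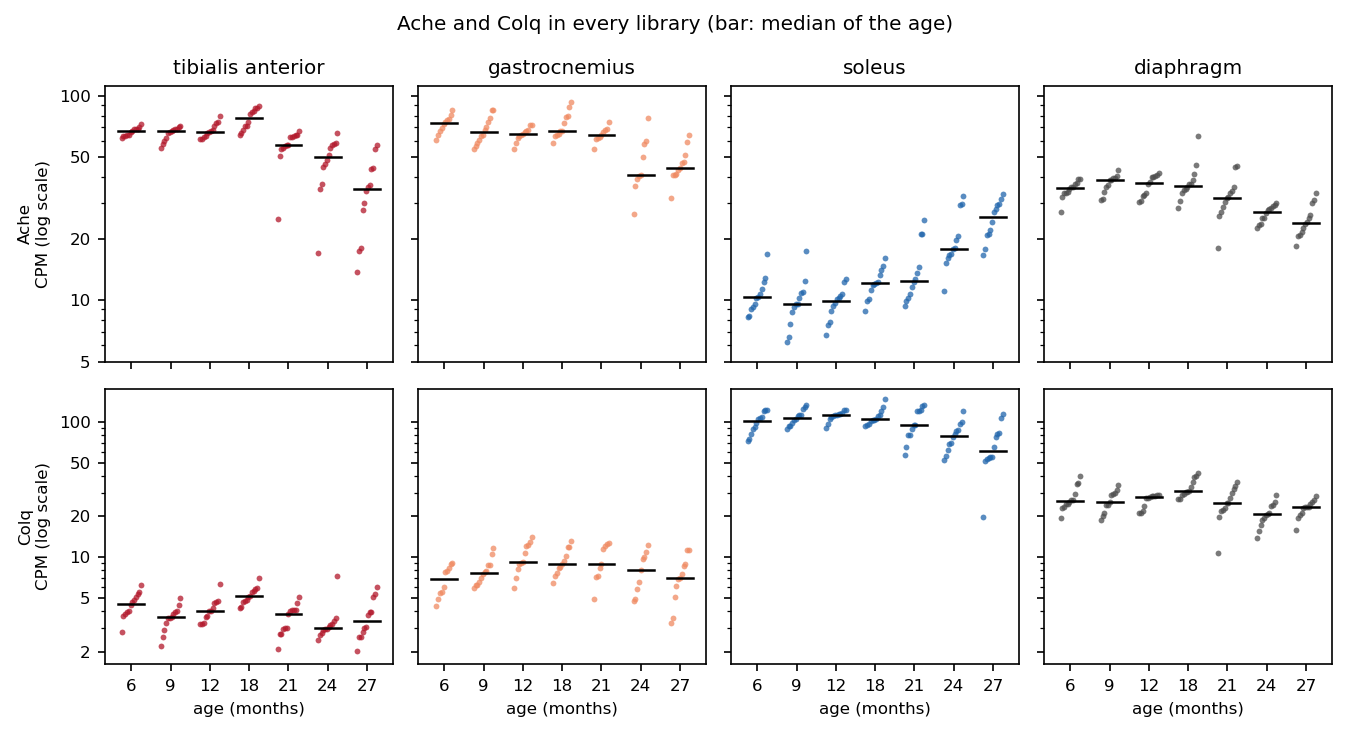
CPM (log axis) of Ache and Colq in every library by age in months, with a panel per muscle, points drawn in order of value within an age and a bar at the median. The Ache median fell from 66.9 to 35.0 CPM in the tibialis anterior and rose from 10.3 to 25.5 CPM in the soleus, and that of Colq in the soleus fell from 102 to 60.7 CPM.

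Colq was called at 27 months in the soleus alone, the muscle with the most of it. There it ran from 19.7 to 115 CPM at 27 months (median 60.7), 7 of 12 libraries lay below all those of 6 months, and the log2 change was -0.62 (SE 0.14, adjusted p = 0.00012). Without replicate 8 of 27 months, which held the lowest value, the change was -0.47 and not called, and edgeR and DESeq2 gave -0.53. In the tibialis anterior Colq was also called lower between 18 and 21 months, by a log2 step of -0.62 (SE 0.13, adjusted p = 0.00029), which edgeR and DESeq2 put at -0.56 and -0.57 and did not call. For the gastrocnemius the difference from 6 months was 0.01 (SE 0.19, adjusted p = 0.955), for the tibialis anterior -0.25 (SE 0.14, adjusted p = 0.109) and for the diaphragm -0.32 (SE 0.11, adjusted p = 0.017).

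The ratio of Colq to Ache moved in opposite directions. In the soleus its log2 value averaged 3.22 ± 0.46 (SD, n = 12) at 6 months and 1.36 ± 0.87 (SD, n = 12) at 27 months, with an adjusted permutation p of 2.9e-05. The tibialis anterior had -3.91 ± 0.34 (SD, n = 12) at 6 months and -3.17 ± 1.03 (SD, n = 12) at 27 months, with an adjusted permutation p of 0.025, and the gastrocnemius value was higher by 0.68 (adjusted permutation p = 0.015). The difference in the diaphragm was 0.25 (permutation p = 0.064).

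Among the 8 muscle fibre markers, Myh4 went with Ache in the 3 limb muscles. The median log2 change of the 8 was -0.38, -0.33, -0.21 and 0.07 in the tibialis anterior, gastrocnemius, soleus and diaphragm. In the soleus and diaphragm this median did not have the sign of Ache. The log2 change of Myh4 was -1.50 for the tibialis anterior (SE 0.18), -1.27 for the gastrocnemius (SE 0.18) and 3.08 for the soleus (SE 0.44), the direction of Ache in each, while for the diaphragm it was 1.37 (SE 0.48), where Ache was lower. Of the 8 fibre markers, 3 were called lower in the tibialis anterior (Ckm, Myh4 and Myh7), 2 lower in the gastrocnemius (Ckm and Myh4), 2 higher in the soleus (Myh1 and Myh4) and 1 higher in the diaphragm (Myh4). Their summed level ran from 214026 to 240010 CPM at 6 months and from 98411 to 208999 at 27 months in the tibialis anterior. In the soleus it ran from 94100 to 111335 and from 48358 to 109867 CPM. Their part in the changes of Ache and Colq was not tested.

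Ncam1, the adhesion molecule, was called higher at 27 months in all 4 muscles, as Musk was. Its lowest, median and highest CPM in the tibialis anterior were 15.6, 18.8 and 25.0 at 6 months, against 83.9, 242 and 339 at 27 months. In the soleus, which had the highest level at 6 months (43.2, 52.5 and 60.9 CPM), they were 82.8, 194 and 238 at 27 months. The groups did not overlap in either muscle or in the gastrocnemius, where the medians were 23.6 and 175 CPM, whereas in the diaphragm 9 of 12 libraries lay above all those of 6 months. Its log2 change was 3.56 for the tibialis anterior (SE 0.23, adjusted p = 2.2e-23), 2.78 for the gastrocnemius (SE 0.16, adjusted p = 8.3e-24), 1.81 for the soleus (SE 0.14, adjusted p = 1.7e-19) and 0.73 for the diaphragm (SE 0.11, adjusted p = 6.8e-08).

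Whether the change from 6 to 27 months itself differed between muscles was tested with interaction contrasts in a joint limma-voom fit. Of the 8 genes, 4 were called for the tibialis anterior against the diaphragm (20.3% of all genes), 4 for the soleus against the gastrocnemius (14.5%), 3 for the tibialis anterior against the soleus (15.8%), 3 for the soleus against the diaphragm (11.9%), 2 for the gastrocnemius against the diaphragm (21.6%) and 1 for the tibialis anterior against the gastrocnemius (7.32%). Ache had the widest difference of the enzyme genes, -2.33 on the log2 scale for the tibialis anterior minus the soleus (SE 0.18, adjusted p = 2.2e-27). The soleus change in Ache also differed from that of the gastrocnemius by 1.88 (SE 0.18, adjusted p = 1.5e-18) and of the diaphragm by 1.73 (SE 0.18, adjusted p = 3.4e-16).

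The Musk and Ncam1 changes were larger in the tibialis anterior than in the soleus by 2.11 (SE 0.32, adjusted p = 5.5e-09) and 1.77 (SE 0.23, adjusted p = 1.5e-11). Between the tibialis anterior and the gastrocnemius the Musk changes were not told apart (0.59, SE 0.34, adjusted p = 0.198), while the Ncam1 change was larger in the former by 0.78 (SE 0.25, adjusted p = 0.00978). Lrp4 was called for the tibialis anterior against the diaphragm, at 0.81 (SE 0.11, adjusted p = 2.8e-11). Agrn, Dok7 and Rapsn were called in none of the 6 pairs, and their differences lay between -0.37 and 0.25.

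At 6 months, before these changes, 5 of the 8 genes were called between the tibialis anterior and the soleus (42.9% of all genes) and 5 between the tibialis anterior and the diaphragm (35.1%). There were 4 for the soleus against the gastrocnemius (45.4%), 4 for the gastrocnemius against the diaphragm (37.3%), 4 for the soleus against the diaphragm (23.9%) and 1 for the tibialis anterior against the gastrocnemius (17.3%). Ncam1 was highest in the soleus, 2.14-fold above the gastrocnemius (adjusted p = 4.3e-09), 2.37-fold above the diaphragm (adjusted p = 1e-11) and 2.65-fold above the tibialis anterior (adjusted p = 3e-14). Dok7 and Rapsn were higher in the tibialis anterior than in the soleus, by 0.87 (SE 0.08, adjusted p = 1.8e-21) and 0.70 (SE 0.07, adjusted p = 2.4e-22). On total-count scaling these were 0.46 and 0.29 and not called.

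Fitted over all 7 ages, Musk and Lrp4 were each a late rise in all 4 muscles, a class that held 13.9%, 7.41%, 7.81% and 3.51% of all genes tested in the tibialis anterior, gastrocnemius, soleus and diaphragm. A late rise is a logistic curve with its inflection after 21 months. The inflection of Musk came at 21.5, 23.5 and 25.5 months for the tibialis anterior, gastrocnemius and diaphragm, and that of Lrp4 at 24.5, 22.25 and 24.5 months, with 25.75 in the soleus. For Musk and Ncam1 in the soleus the fit stopped at 27.0 months, the end of the search, so no inflection was reached within the ages sampled. Rapsn was also a late rise in the soleus and tibialis anterior, and both fits stopped at 27.0 months. It was a linear rise in the gastrocnemius (18.9% of all genes) and had no trend in the diaphragm. Ache was a late fall in the tibialis anterior, gastrocnemius and diaphragm, with inflections at 24.0, 21.5 and 22.25 months, and a late rise in the soleus at 23.5 months. Ncam1 in the gastrocnemius was a mid rise (20.25 months, a class of 1.64% of all genes) and Colq in the soleus a late fall (23.75 months). Late falls held 18.7%, 10.2%, 11.2% and 8.36% of all genes tested in the tibialis anterior, gastrocnemius, soleus and diaphragm.

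Among the libraries of 27 months, those with more Musk also had more Ncam1. They also had more Lrp4 in the tibialis anterior and soleus, and less Ache in the former. Over the 12 libraries of the tibialis anterior, Musk and Ache had r = -0.84 (adjusted permutation p = 0.0041) and rho = -0.81 (adjusted permutation p = 0.017), and r was -0.87 without the 2 libraries farthest from the Musk median. In the soleus the sign was the opposite, with r = 0.79 (adjusted permutation p = 0.008), rho = 0.78 (adjusted permutation p = 0.017) and r = 0.68 without those 2 (n = 12). In the gastrocnemius r was -0.80 (adjusted permutation p = 0.011, n = 11) and rho -0.52 (adjusted permutation p = 0.17), and r was -0.40 without 2 libraries, so the relation rests on them. In the diaphragm r was -0.54 (adjusted permutation p = 0.098, n = 12), rho -0.52 (adjusted permutation p = 0.14), and r -0.04 without 2 libraries.

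**Figure D5:**
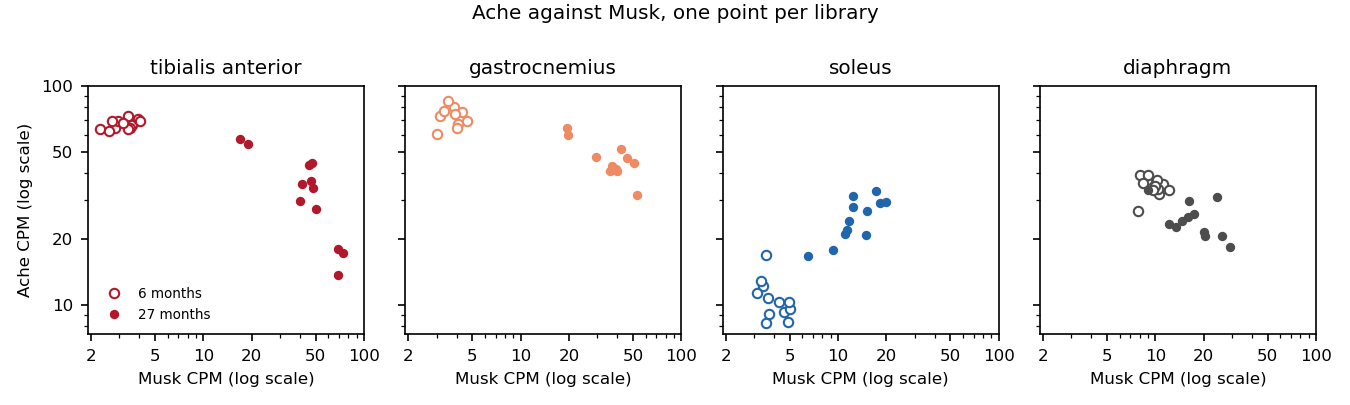
Ache against Musk in CPM (both axes log) for each library of 6 months (open) and 27 months (filled), with a panel per muscle. At 27 months the points slope downward in the tibialis anterior (r = -0.84) and upward in the soleus (r = 0.79).

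In all, 28 relations of Musk with the other 7 genes in 4 muscles were computed. Musk and Ncam1 had r = 0.89, 0.87, 0.86 and 0.68 in the tibialis anterior, gastrocnemius, soleus and diaphragm, with adjusted permutation p between 0.0036 and 0.031, rho between 0.69 and 0.80 (adjusted permutation p of 0.017 to 0.038), and r of 0.72, 0.59, 0.65 and 0.79 without 2 libraries. Musk and Lrp4 had r = 0.80 in the tibialis anterior and 0.85 in the soleus (adjusted permutation p of 0.0098 and 0.0041, rho of 0.83 and 0.73 with adjusted permutation p of 0.017 and 0.03, and r of 0.66 and 0.61 without 2 libraries). In the gastrocnemius the value of 0.69 (adjusted permutation p = 0.041, rho 0.47 with an adjusted permutation p of 0.22) dropped to 0.05 without 2 libraries, and in the diaphragm r was -0.06 (adjusted permutation p = 0.85) and rho 0.03 (adjusted permutation p = 0.97), with r = 0.51 without 2 libraries. Musk and Colq in the soleus had r = -0.73 (adjusted permutation p = 0.026), rho = -0.69 (adjusted permutation p = 0.038) and r = -0.48 without 2 libraries. The sign for Colq was the opposite in the tibialis anterior, with r = 0.55 (adjusted permutation p = 0.098), rho = 0.79 (adjusted permutation p = 0.017) and r = 0.73 without 2 libraries. Musk and Rapsn had r = 0.55, 0.69, 0.79 and 0.24 in the tibialis anterior, gastrocnemius, soleus and diaphragm (adjusted permutation p of 0.098, 0.041, 0.0084 and 0.58). Musk and Dok7 had r = -0.71, -0.66, 0.18 and 0.24 in that order (adjusted permutation p of 0.022, 0.048, 0.7 and 0.58). On total-count scaling the Dok7 values of the tibialis anterior and gastrocnemius were -0.47 and -0.27. The ratio of fibre types and the depth differ among these libraries too, and their part was not tested.

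Other genes of the junction were taken from 8 lists of 63 genes, of which 55 were in the files. At 27 months 18 were called higher and 6 lower of 53 tested in the tibialis anterior, 15 and 4 of 54 in the gastrocnemius, 17 and 1 of 54 in the soleus, and 9 and 0 of 54 in the diaphragm, beside 17.2% and 10.4%, 15.1% and 7.76%, 9.21% and 5.78%, and 3.27% and 4.25% of all genes higher and lower. Their median log2 change was 0.04, 0.04, 0.10 and 0.04 in that order. All 5 acetylcholine receptor subunits were called higher in each limb muscle, and 3 of 5 in the diaphragm. Chrng, the subunit of the fetal receptor, went from a median of 0.251 to 34.2 CPM in the tibialis anterior (log2 change 7.16, SE 1.05, adjusted p = 4.9e-09, a fitted size that depends on the prior count at so low a level) and from 0.440 to 6.69 CPM in the diaphragm (3.68, SE 0.52, adjusted p = 1.6e-08). Chrna1, the subunit that binds acetylcholine, rose by 5.35, 4.82, 2.55 and 1.29 in the tibialis anterior, gastrocnemius, soleus and diaphragm.

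Of the 13 MuSK signalling partners, the tibialis anterior had 3 called (Abl1, Pak1 and Ptpn11), the gastrocnemius 1 (Pak1), the soleus 2 (Pak1 and Src) and the diaphragm 0. Over all genes tested 27.6%, 22.8%, 15% and 7.52% were called in that order, so the list was not called more often than genes at large. Its median log2 change was -0.1, -0.18, 0.02 and -0.03. Pak1, a kinase recruited by MuSK signalling, was called higher in the limb muscles, by 1.48, 0.66 and 1.09 in the tibialis anterior, gastrocnemius and soleus. Ptpn11, the phosphatase SHP2, was called lower in the tibialis anterior (-0.88, SE 0.07, adjusted p = 2e-19). In the diaphragm Pak1 stood at 0.44 and Ptpn11 at -0.30. Erbb2, a neuregulin receptor, rose by 3.52, 3.05 and 2.64 in the same muscles, and Etv4, an Ets factor, was called lower in them by -1.20, -0.98 and -0.86.

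Of 9 synaptic basal lamina genes tested, the tibialis anterior had 2 called, the gastrocnemius 1, the soleus 1 and the diaphragm 0. Over all genes tested 27.6%, 22.8%, 15% and 7.52% were called in that order. The median log2 change of the list was -0.08, -0.12, 0.03 and 0.04. Lama5, a laminin chain, rose by 2.32, 1.73 and 1.23 in the tibialis anterior, gastrocnemius and soleus, while Col4a3, a type IV collagen chain, stayed within 1.5-fold (-0.52 to -0.36). Sntb1, a syntrophin, was like Ache in its signs, at -1.45, -1.39 and 1.23 in these muscles. It was 1 of 8 tested genes of the postsynaptic cytoskeleton and channels. Of that list 1 was called higher and 2 lower in the tibialis anterior and in the gastrocnemius, 1 higher in the soleus and 0 in the diaphragm. Macf1, a cytoskeletal linker, rose in the tibialis anterior (0.78) and the gastrocnemius (0.83). Of the cholinesterase partners, Bche, the related enzyme butyrylcholinesterase, was called higher in the 3 limb muscles by 1.41, 1.76 and 1.33. Prima1, the membrane anchor of acetylcholinesterase, was called lower in the tibialis anterior (-1.28, SE 0.17, adjusted p = 3.8e-10) and higher in the diaphragm (0.93, SE 0.17, adjusted p = 5.7e-06).

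Alg2, a glycosylation enzyme linked to congenital myasthenia, was called lower in the tibialis anterior (-0.84) and the gastrocnemius (-0.78), and Alg14 was called in no muscle (-0.34 to 0.14). Of the 5 genes on that list, 1 was called in each of these muscles and 0 in the soleus and the diaphragm. The 4 denervation-linked regulators in the files, Myog, Hdac4, Gadd45a and Runx1, were called higher in all 4 muscles. Runx1 rose by 5.10, 3.70, 2.84 and 1.77 and Gadd45a by 4.49, 4.23, 2.82 and 1.25 in the tibialis anterior, gastrocnemius, soleus and diaphragm. Myogenin and this list were chosen with denervation in view, so their direction is no independent evidence.

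Markers of Schwann cells and axons were low in these whole muscles. Beside the counts below, 27.6%, 22.8%, 15% and 7.52% of all genes tested were called at 27 months in the tibialis anterior, gastrocnemius, soleus and diaphragm. Of 7 Schwann cell markers the tibialis anterior had 4 called higher, the gastrocnemius 3 higher and 2 lower, and the soleus 1 higher, with none called for the diaphragm by limma-voom. Their summed level ran from 19.4 to 29.6 CPM at 6 months and from 26.1 to 42.1 at 27 months in the tibialis anterior, and from 31.3 to 76.7 and 32.1 to 71.4 CPM in the diaphragm. Of 6 axon and neuron markers Chat, the defining enzyme of motor neurons, was at 0 in the libraries of 6 and 27 months, and the sum was at most 12.2 CPM at 6 months and 19.9 CPM at 27 months, both in the soleus. Calls on these axon and neuron markers went both ways in the soleus (2 higher, 1 lower, 4 tested) and gastrocnemius (2 higher, 1 lower, 3 tested). All calls were higher in the diaphragm (3, with 4 tested) and tibialis anterior (1, with 3 tested). Nefm, a neurofilament, was called higher in all 4 muscles, from a median of 0.0917 to 2.15 CPM in the tibialis anterior, where Nefl was at 0 too. Of 4 satellite cell markers 2 were called higher in the gastrocnemius and in the soleus, 1 higher and 1 lower in the tibialis anterior. Their part in the changes of the 8 genes was not tested.

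By their means over the 28 groups, each of the 8 genes was set beside 11517 other genes. The genes closest to Musk were Krt18 (r = 0.965) and Mdc1 (0.956), and those closest to Ncam1 were Spg21 (0.985), Tgif1 (0.980) and Slc29a1 (0.977). Lrp4 was closest to Abhd15 (0.907) and Krt8 (0.896). Agrn was closest to Utrn, which codes for the junctional protein utrophin (0.983), Plat (0.981) and Susd2 (0.979). Ache was closest to Plcd4 (0.980), Cib2 (0.969) and Tmem109 (0.968), and Colq to Slc16a7 (0.990), Zfp385a (0.989) and Cnnm1 (0.989). Dok7 was closest to Yipf3 (0.978) and Cndp2 (0.973), and Rapsn to Ift122 (0.957), Trmt12 (0.957) and Mfsd11 (0.944). Within the set the values farthest from 0 were those of Dok7 with Colq (-0.93), Musk with Lrp4 (0.91), Rapsn with Colq (-0.89), Colq with Ache (-0.88) and Dok7 with Rapsn (0.85). These values describe 28 points of 4 muscles that share their libraries, and muscle level and age both enter them.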

How the data were processed

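Total RNA of rat muscle was depleted of ribosomal RNA, made into strand-specific libraries and sequenced in pairs. The authors counted reads per gene with ArrayStudio (version not given in the sources used here) on the rat B6.0 reference with a RefSeq-based in-house gene model, and deposited raw counts with no normalization. Lines of the same symbol were summed here. The 8 genes and all lists were chosen with earlier results of these data known.

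Each muscle was fitted with all its ages by limma-voom (limma 3.58.1, edgeR 4.0.16, R 4.3.3) after a low count filter, filterByExpr with age as group (minimum count 10 and minimum total 15) and scaling by trimmed mean of M values (TMM). Contrasts between muscles came from 1 fit of all libraries with 28 group means. Tests were two-sided, and a call needed a Benjamini-Hochberg adjusted p under 0.05 and over 1.5-fold. Log2 ratios within a library used a prior count of 0.5. Ratios and correlations were tested by permutation of 100000 resamples, where the smallest one-sided p is 1e-05. Trends were null, linear or logistic by the Bayesian information criterion (gain over 6 for a trend, over 2 for the logistic form), with inflections before 12 months early and after 21 months late. Alternatives were RLE size factors, total-count scaling, no count filter, Bonferroni, a 2-fold threshold, sample quality weights, edgeR, DESeq2 1.42.0 (age comparisons), a replicate block and left-out libraries. The code was tested on simulated data.

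Named genes were the 8, the 3 genes most like each by Pearson r over the 28 group means, and from each pathway list the 2 with the largest mean absolute change among genes tested in all muscles. For Musk, Lrp4 and Dok7 the third most like gene is not reported here. Abl1, Src, Nefl, Nefm, Hoxc10, Myh3 and the fibre markers were named after their values were seen. The lists of markers covered Schwann cells, axons, satellite cells, endothelium, fibroblasts, red cells and muscle fibres. The 3 libraries named as standing apart had 2 or more of the 8 genes over 4 scaled median absolute deviations from their group median. Of the endothelial markers 1 of 4 was called lower in each limb muscle. Of the fibroblast markers 2 of 4 were called lower in the diaphragm, 1 in the gastrocnemius and 1 in the soleus, and of the 4 red cell markers in the files 1 was called higher in both the soleus and tibialis anterior. Beside these, 27.6%, 22.8%, 15% and 7.52% of all genes tested were called at 27 months in the tibialis anterior, gastrocnemius, soleus and diaphragm.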

Additional observations from a re-analysis of the deposited data

Results flagged for a closer look

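In 24 combinations of a gene and a group of 9 or 10 libraries, all in the gastrocnemius, 2 held a library apart from the rest by Dixon's test, where chance gives about 1 in 20. Rapsn in replicate 5 at 21 months had a log2 CPM of 4.65 against 4.34 in the next library, and Agrn in replicate 1 at 6 months had 5.59 against 5.47.

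The change from 6 to 27 months differed between muscles for several genes, by the limma-voom interaction contrast. For Musk the log2 difference was 2.35 (gastrocnemius minus diaphragm), 0.83 (soleus minus diaphragm), 2.94 (tibialis anterior minus diaphragm), -1.52 (soleus minus gastrocnemius) and 2.11 (tibialis anterior minus soleus). For Ncam1 it was 2.01, 1.02, 2.79, -0.98 and 1.77 for the same pairs, and 0.78 for the tibialis anterior minus the gastrocnemius. For Ache it was 1.73 (soleus minus diaphragm), -0.60 (tibialis anterior minus diaphragm), 1.88 (soleus minus gastrocnemius) and -2.33 (tibialis anterior minus soleus), for Lrp4 0.81 (tibialis anterior minus diaphragm), and for Colq -0.64 (soleus minus gastrocnemius, adjusted p = 0.0148). The pairs with the gastrocnemius cannot be told apart from its running number series.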

How the results depend on the processing

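Of 127 log2 changes and differences of the 8 genes, 70 kept direction and call under every alternative run. Total-count scaling, which raised the percentage of calls that were higher at 27 months from 66 to 90 in the gastrocnemius, 62.4 to 89.1 in the tibialis anterior, 61.4 to 77.7 in the soleus and 43.4 to 51 in the diaphragm, turned the direction of Agrn (gastrocnemius 0.08, soleus 0.07, tibialis anterior 0.24), Dok7 (gastrocnemius 0.19, tibialis anterior 0.14) and Colq (tibialis anterior 0.05) at 27 months. It also turned the Dok7 difference in change between gastrocnemius and diaphragm (0.02), the differences at 6 months of Rapsn between tibialis anterior and diaphragm (-0.03) and Lrp4 between soleus and gastrocnemius (0.19), and the correlation of Musk with Agrn in the gastrocnemius (0.22). None of these had been called except that correlation (r = -0.66). Without the low count filter Colq in the gastrocnemius was -0.01, and it ran from -0.07 to 0.10 as each library was left out.

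At a 2-fold threshold 0 of the 8 genes were called at 27 months in the diaphragm, 2 in the gastrocnemius and 3 in the soleus. Over all genes 1470, 1068, 791 and 248 were then called in the tibialis anterior, gastrocnemius, soleus and diaphragm, against 3245, 2708, 1825 and 905, and 1083 and 538 in the last pair with Bonferroni adjustment. Of the changes that differed between muscles, 2 remained at 2-fold for the tibialis anterior against the diaphragm, 2 for the soleus against the gastrocnemius and 0 for the tibialis anterior against the gastrocnemius, and with Bonferroni adjustment 1 for the soleus against the diaphragm, 1 for the soleus against the gastrocnemius and 0 for the tibialis anterior against the gastrocnemius. Of the levels at 6 months, 2 remained at 2-fold for the tibialis anterior against the diaphragm, 3 against the soleus and 0 against the gastrocnemius, and 0 of the last with Bonferroni. The Ache difference in change between tibialis anterior and diaphragm was not called with RLE (-0.57), total-count scaling (-0.26), quality weights (-0.57) or edgeR (-0.47), and Musk in the soleus at 24 months not with quality weights (0.37). Leaving out each library of 6 or 27 months kept 34 of 36 results.

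A replicate block changed no call of the 8 genes. Within a muscle it grouped libraries by number across ages, which come from different animals, so it cannot test for shared animals. With it 4 of the 8 genes were called at 27 months in the tibialis anterior as without it, and 919 genes in all in the diaphragm against 905. In the fit of all libraries it grouped those of 1 age and number, with an estimated correlation of 0.066 within such groups. Libraries of 1 age that share a number across muscles had a mean correlation of 0.0611 to 0.178 (lowest -0.617), against -0.0159 to -0.00476 for libraries of other numbers. Between 13 of 72 (diaphragm and gastrocnemius) and 43 of 84 (soleus and tibialis anterior) correlated best with their own number, a hint from the data that some numbers mark 1 animal. Since the labels do not say so and from 26 of 72 to 60 of 83 pairs, not all, had a correlation over 0.1, the fit without the block was kept.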
